A study of Rattus norvegicus with 16 samples.

Results

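Gene expression in the rat diencephalon was compared between all animals that had been zinc-deficient at some point and all pair-fed animals, so as to find the transcripts that differed both during deficiency and after zinc had been returned. The diencephalon is the part of the forebrain that holds the thalamus and the hypothalamus. All 16 arrays of the study entered, and none was left out. Each array held the RNA of the diencephalon of 1 male Sprague-Dawley rat, an outbred stock, and there were 4 rats in each of 4 groups. Zinc deficiency (ZD) meant 10 days, from 5 weeks of age, on food holding 0.6 mg of zinc in each kg, against pair-feeding (PF) with equal amounts of food holding 30 mg. A second, 16-day experiment repeated these diets for 10 days, the former deficiency group (ZR, for zinc recovery) beside its pair-fed group (ZRPF), and then gave all rats a fixed 13 g of zinc-sufficient food for 6 days. Rats on the deficient diet ate freely, and all 4 groups shared single housing and a salt preference test with 300 mM NaCl. In the 16-day experiment some rats had been removed for their salt preference (high in a pair-fed rat, low in recovery rats), and the arrayed rats were those judged average in body weight, plasma zinc and salt preference, so p-values measure the spread between such rats only.

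The effect described here, called the shared effect, is the mean of 2 differences, ZD minus PF and ZR minus ZRPF, each on the log2 scale of the signal intensity. Each difference comes from its own 4 deficient and 4 control rats, so the 2 experiments have no array in common. A shared effect of 1 is a doubling in both experiments on average. Experiment entered the model as a block, which takes up any difference in level between the 10-day and the 16-day rats. The model was fitted with limma to 15521 probe sets, and p-values were adjusted over all of them by the Benjamini-Hochberg method with a threshold of 0.05. Where genes are counted, each of 9278 genes is represented by its brightest tested probe set.

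Zinc is a structural or catalytic ion in a large share of cellular proteins, and cells keep it in balance with importers of the SLC39 (ZIP) family, exporters and vesicle loaders of the SLC30 (ZnT) family, and metallothioneins that bind it. A zinc-poor diet lowers food intake in rats within days, which is why controls are pair-fed. The hypothalamus holds the circuits for feeding, for salt and water balance and for the release of adrenal glucocorticoids. Glucocorticoids act through the receptor encoded by *Nr3c1* and induce a well-known group of genes in brain and in other tissues. Chaperones are proteins that help others to fold: those of the cytosol are induced through heat shock factor, and those of the endoplasmic reticulum through the unfolded protein response.

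The shared effect was narrow. Of 15521 probe sets, 2 passed the threshold (0.0129%), both for *RT1-S3*, a gene of the rat major histocompatibility complex (MHC) whose product belongs to the non-classical class I molecules, and both were higher in the deficient groups. At an unadjusted p under 0.05 there were 1035 probe sets, 551 higher and 484 lower, and 5% of those tested is 776. Taken alone, ZD minus PF had none past the threshold with limma (1220 at an unadjusted p under 0.05), and ZR minus ZRPF had 1 (808). Among genes, 341 (3.68%) were higher and 270 (2.91%) were lower at that unadjusted level. The direction of a gene in one experiment said little about the other: 2321 genes (25%) were higher in both, 2081 (22.4%) were lower in both, and 47.4% had the same sign. Across the 9278 genes, which are not independent, ZD minus PF and ZR minus ZRPF had a Pearson r of 0.018 and a Spearman rho of -0.031. Over the tested probe sets, arrays of different groups correlated at 0.952 to 0.985 and arrays of one group at 0.974 to 0.987.

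*RT1-S3* is shown first with the stretch of genome before its start, because it is the gene that passed. Capitals mark the match to GAAANNGAA on the reverse strand, the core of the interferon-stimulated response element through which interferons induce many genes. It lies at position -111 from the transcript start used here. The gene as annotated begins further upstream, at base 2675463 and within the stretch shown, so the position depends on the start chosen. The promoter runs 250 bases before to 50 bases after the transcript start used, and its sequence is from RefSeq (rat build GRCr8, plus strand, chr20:2675278-2675577).
RT1-S3: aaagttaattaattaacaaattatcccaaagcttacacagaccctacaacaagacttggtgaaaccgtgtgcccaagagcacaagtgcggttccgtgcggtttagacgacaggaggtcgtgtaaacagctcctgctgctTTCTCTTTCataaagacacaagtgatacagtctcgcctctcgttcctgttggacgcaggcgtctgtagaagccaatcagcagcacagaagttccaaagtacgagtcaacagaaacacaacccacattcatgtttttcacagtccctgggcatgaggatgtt

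That core, searched on both strands, was present in 9.71% of 33469 rat promoters of the same length and in 6 of 11 promoters of the interferon and MHC list. The search was added after the result for this gene was known. A match to these letters is a description and no evidence of a bound site.

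The log2 signals of the brightest *RT1-S3* probe set were 7.92, 7.27, 7.73 and 8.07 in the PF rats and 8.70, 8.99, 8.60 and 8.37 in the ZD rats. They were 7.37, 7.17, 7.02 and 7.50 in the ZRPF rats and 7.58, 7.83, 8.26 and 8.39 in the ZR rats. In each experiment every deficient rat lay above every pair-fed rat, with the gap in the 16-day experiment small (7.50 against 7.58). Pooled over experiments the groups overlapped, since the PF mean (7.75 ± 0.35 SD, n = 4) lay above the ZRPF mean (7.27 ± 0.21) and near the ZR mean (8.02 ± 0.38). The shared effect was 0.83 ± 0.13 (SE), a ratio of 1.78 (limma adjusted p = 0.0459), from 0.92 ± 0.19 in ZD minus PF and 0.75 ± 0.19 in ZR minus ZRPF. The difference between these changes was 0.17 ± 0.27 (unadjusted p = 0.548). An exact permutation test that swapped labels within each experiment gave p = 0.000408 (two-sided), the smallest that its 4900 regroupings allow. The gene was picked as the one of smallest p, so that value describes the separation only.

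**Figure D1:**
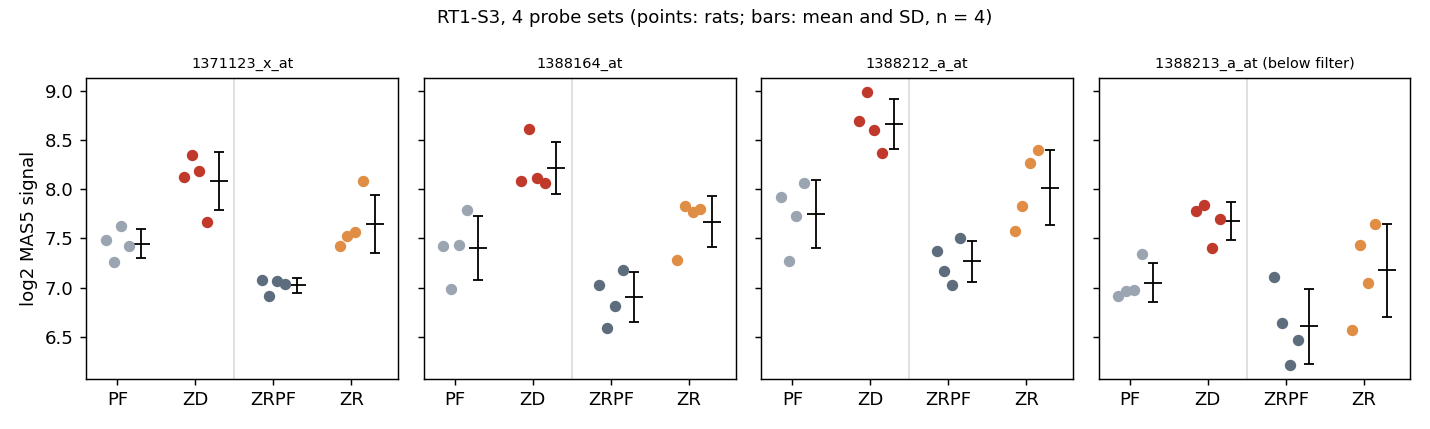
Log2 MAS5 signal of the 4 probe sets listed for *RT1-S3* (vertical axis) in the 16 rats by group (horizontal axis); points are rats, bars are the mean and SD of 4 rats. In the probe set 1388212_a_at the ZD rats run from 8.37 to 8.99 and the PF rats from 7.27 to 8.07, and the ZR rats from 7.58 to 8.39 and the ZRPF rats from 7.02 to 7.50.

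The other probe sets listed for *RT1-S3* had the same direction. The probe set 1388164_at differed by 0.79 ± 0.13 (adjusted p = 0.0459), and 1371123_x_at differed by 0.63 ± 0.11 (adjusted p = 0.0564). Both also had every deficient rat above every pair-fed rat within each experiment. Both were dim, with a mean log2 signal over all rats of 7.55 against a filter of 7.35. In the order given, their means were 7.41 and 7.45 in PF and 6.91 and 7.02 in ZRPF. The ZRPF means lay below the filter and the PF means just above it. The means were 8.22 and 8.09 in ZD and 7.67 and 7.65 in ZR. Entry of these probe sets into the test thus depended on the higher signals of the deficient rats. The fourth, 1388213_a_at, was below the filter on dim probe sets, and without the filter it differed by 0.60 ± 0.15 (unadjusted p = 0.000927, adjusted p = 0.645). Class I genes of the rat are numerous, alike in sequence and polymorphic, and 3 of the 4 probe sets are of the types (_a_at and _x_at) that can read several transcripts, so the transcript behind these signals is uncertain among near-identical copies.

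The call for *RT1-S3* stood at the edge of the threshold. Its 2 probe sets that passed had unadjusted limma p-values of 5.2e-06 and 5.9e-06 and share 1 adjusted p. That value was reached because 2 probe sets of the same gene ranked first. Either of them without the other would not have passed in the main analysis. Its effect kept its direction in all 26 alternatives that tested it, from 0.73 to 0.91, but the adjusted p of its brightest probe set ran from 0.0136 to 0.802 and passed in 9. The highest p came without the experiment block. Leaving out 1 rat ended the call for PF rats 1, 2 and 4, ZD rats 2, 3 and 8, ZRPF rats 2, 4 and 5 and ZR rats 10, 13 and 15, and the number of probe sets past the threshold was then 0, while 4 passed without ZR rat 7.

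Other MHC and interferon genes that were tested did not pass. The list held 33 genes, of which 30 were on the array and 14 were bright enough to be tested. Among those on the array but below the filter were *Tap1*, *Tap2*, *Psmb8* and *Psmb9*. Of 14 tested members of that list, 7 were higher in both experiments (50%, beside 25% of all genes), none was lower in both, and 4 were higher at an unadjusted p under 0.05 (28.6%, beside 3.68%), *RT1-S3* included. *Irf7*, the transcription factor that amplifies the interferon response, differed by 0.43 ± 0.17 (adjusted p = 0.689), *Ifitm3*, an interferon-induced membrane protein that restricts viruses, by 0.35 ± 0.14 (adjusted p = 0.689), and *Irf1* by 0.26 ± 0.12 (adjusted p = 0.719). *B2m*, the light chain that class I molecules share, differed by 0.02 ± 0.06. The class II chaperone *Cd74* went opposite ways, 0.68 in ZD minus PF and -0.44 in ZR minus ZRPF. Among the tested *RT1* genes outside the list, *RT1-CE12* differed by 0.02 ± 0.09 and *RT1-T24-4* by -0.15 ± 0.12, and *RT1-M3-1*, another non-classical class I gene, by 0.20 ± 0.09 (adjusted p = 0.717).

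Cells that carry MHC genes were also measured through their markers. The summed signal of 18 microglial and myeloid markers was 11664 to 14118 in PF, 12949 to 17176 in ZD, 12595 to 13818 in ZRPF and 12448 to 14866 in ZR, so it overlapped in both experiments. That of 18 endothelial markers was 16706 to 18147 in PF and 18295 to 19348 in ZD, without overlap, and 16570 to 18251 in ZRPF and 17229 to 17784 in ZR. Of 16 tested endothelial markers, 9 were higher in both experiments (56.25%, beside 25% of all genes) and 2 were lower in both. At an unadjusted p under 0.05, 3 were higher (18.75%, beside 3.68%), and none passed. Among those higher in both was the tight junction gene *Cldn5* (0.15 ± 0.07, adjusted p = 0.748). The part of microglial, myeloid and endothelial cells in the *RT1-S3* result was not tested. In tissue RNA, more cells of a type and more RNA per cell cannot be told apart.

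Genes next in order of p did not pass. On the lower side the first was *Lrrn3*, a neuronal membrane protein with leucine-rich repeats. Its log2 signals were 10.98, 11.08, 11.24 and 11.32 in PF and 10.53, 10.58, 10.75 and 10.53 in ZD, and 11.21, 11.41, 11.03 and 11.19 in ZRPF and 11.09, 10.98, 10.76 and 11.02 in ZR. The ZD rats lay below all PF rats, and 1 ZR rat lay within the ZRPF range. The shared effect was -0.40 ± 0.07 (adjusted p = 0.102), made of -0.55 in the 10-day and -0.25 in the 16-day experiment. It passed in 2 of 27 alternatives.

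*Galnt1*, which starts mucin-type O-glycosylation of proteins, was one of 2 genes with every deficient rat below every pair-fed rat in both experiments, although the nearest pair in the 10-day experiment is equal at 2 decimals. Its signals were 10.23, 10.04, 10.00 and 10.17 in PF and 9.86, 9.73, 10.00 and 9.82 in ZD, and 10.21, 9.96, 10.02 and 10.22 in ZRPF and 9.59, 9.70, 9.84 and 9.93 in ZR. The effect was -0.30 ± 0.06 (adjusted p = 0.352), while its other tested probe set gave -0.14 ± 0.11. The other gene of this kind was *Ttc33*. Higher in every deficient rat of both experiments were 6 genes: *RT1-S3*, *Aph1a*, a subunit of the gamma-secretase complex, *Phf12*, *Gorab*, *Rnf2* and *C4h2orf42*. Together these 8 genes are 0.0862% of those tested. In either direction, groups did not overlap for 4.35% of genes in the 10-day and 2.82% in the 16-day experiment. How many genes would by chance do so in both was not tested. A second probe set of *Rnf2* overlapped in the 16-day experiment, and one of *Phf12* overlapped in both and differed by -0.07 in ZR minus ZRPF.

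*C1qtnf12*, which encodes a secreted protein of the C1q and TNF-related family, was the second gene on the higher side. It stood at 7.94, 7.19, 7.31 and 7.39 in PF and at 8.26, 8.17, 8.25 and 8.17 in ZD, and at 7.41, 8.23, 7.55 and 7.95 in ZRPF and 8.29, 8.30, 8.15 and 8.17 in ZR. The 8 deficient rats lay within a narrow range, and the pair-fed rats spread below it, with 1 ZRPF rat inside it. The effect was 0.60 ± 0.12 (adjusted p = 0.266). Also higher, and not past the threshold, were *Itgb2*, the common beta chain of leukocyte integrins (0.34 ± 0.09), *Srgn*, the proteoglycan core of leukocyte granules (0.19 ± 0.05), and *Hnrnpdl*, an RNA-binding protein (0.23 ± 0.06, and 0.22 ± 0.06 with its other probe set), each with an adjusted p of 0.584.

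**Figure D2:**
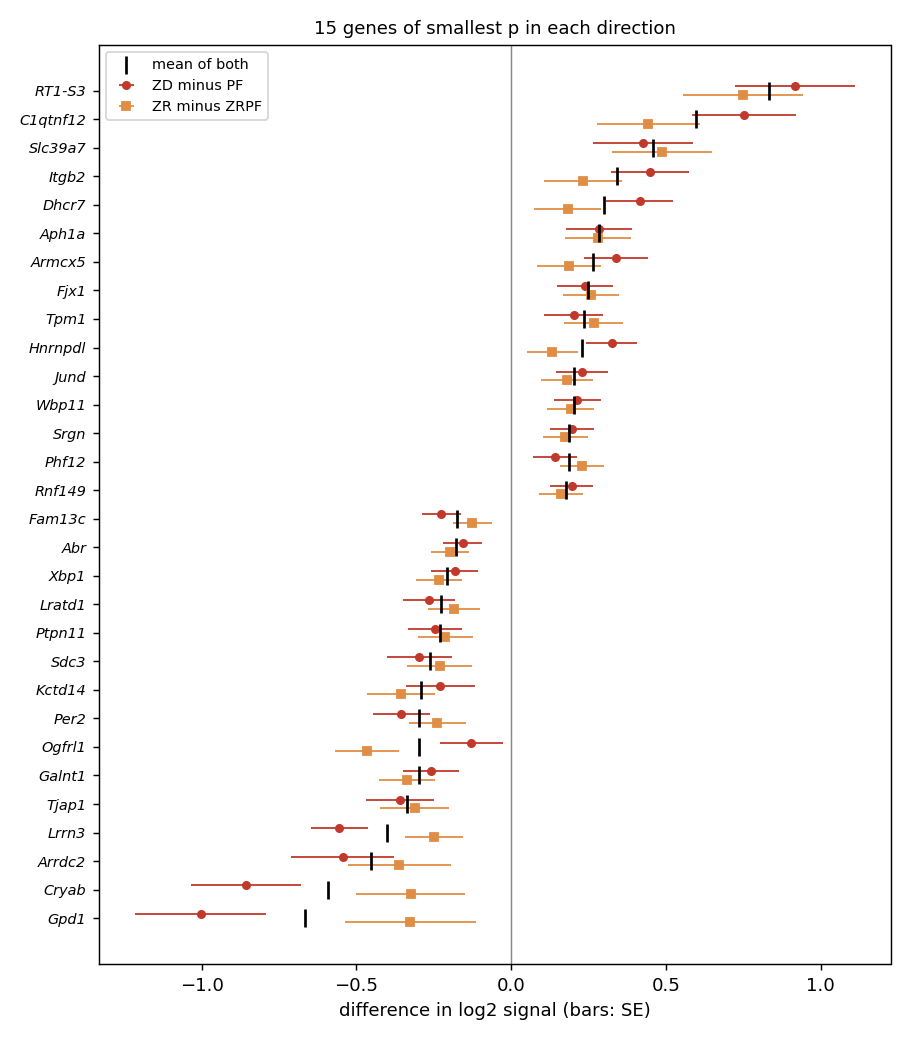
Difference in log2 signal (horizontal axis) for the 15 genes of smallest p in each direction (vertical axis), as ZD minus PF (circles) and ZR minus ZRPF (squares) with SE, and their mean (ticks). *RT1-S3* stands at 0.92 and 0.75 and is the one gene of the 30 that passed; *Gpd1* stands at -1.003 and -0.33.

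Of the 13 lists described, that of genes induced by glucocorticoids had the largest share of members lower in both experiments. Of 27 tested members, 25 were lower in the deficient groups and 24 were lower in both experiments (88.9%, beside 22.4% of all genes). At an unadjusted p under 0.05, 14 were lower (51.9%, beside 2.91%) and none was higher, and none passed the adjusted threshold. The median shared effect was -0.23, with medians of -0.28 in the 10-day and -0.24 in the 16-day experiment, beside a median of 0.0019 over all genes. The largest difference was that of *Pdk4*, the kinase that turns off pyruvate dehydrogenase in fasting.

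*Pdk4* signals were 9.03, 10.27, 9.17 and 10.38 in PF and 9.48, 9.41, 8.23 and 7.40 in ZD, and 10.36, 9.42, 8.94 and 10.12 in ZRPF and 9.02, 8.67, 9.00 and 9.30 in ZR. The rats of each group spread widely and the groups overlapped in both experiments. The effect was -0.90 ± 0.29, a ratio of 0.538 (adjusted p = 0.584). *Gpd1*, the cytosolic glycerol-3-phosphate dehydrogenase, was at 12.14, 12.34, 12.64 and 13.01 in PF and 11.36, 11.22, 11.59 and 11.95 in ZD, without overlap. It was at 12.18, 11.90, 12.35 and 12.40 in ZRPF and at 11.27, 12.00, 11.83 and 12.42 in ZR, where the highest ZR rat exceeded every ZRPF rat. Its effect was -0.66 ± 0.17 (adjusted p = 0.584). For *Gpd1*, 7 of 8 deficient rats lay below their pair-fed mean.

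The other members included several of the best known targets of the receptor, and these varied. *Fkbp5* differed by -0.20 ± 0.14 and *Dusp1* by -0.22 ± 0.16 (adjusted p = 0.888 and 0.902). Their changes in ZR minus ZRPF were -0.27 and -0.02. *Sgk1*, a kinase that regulates sodium channels, differed by -0.67 ± 0.27, *Arrdc2* by -0.45 ± 0.12, *Ddit4*, an inhibitor of mTORC1, by -0.40 ± 0.17, *Per1* by -0.31 ± 0.12 and *Tsc22d3*, which encodes the leucine zipper protein GILZ, by -0.23 ± 0.07 (adjusted p from 0.584 to 0.707). *Angptl4* (-0.31 ± 0.10) and *Pdk4* are known as fasting-induced genes as well. *Glul*, glutamine synthetase, which astrocytes express and glucocorticoids induce, stood on the astrocyte list, and its 3 tested probe sets differed by -0.11 ± 0.06, -0.17 ± 0.07 and -0.30 ± 0.08. The receptor gene *Nr3c1* itself differed by 0.11 ± 0.08 (adjusted p = 0.886), and *Mt2A*, a metallothionein that both zinc and glucocorticoids induce, by -0.15 ± 0.13 (adjusted p = 0.920).

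The mean centred log2 signal of its 27 genes was -0.11, 0.17, 0.04 and 0.43 in the PF rats and -0.09, -0.05, -0.31 and -0.34 in the ZD rats. It was 0.29, -0.04, -0.01 and 0.35 in ZRPF and -0.25, -0.05, -0.11 and 0.06 in ZR. The group means were 0.13 ± 0.23 (SD, n = 4) in PF, -0.20 ± 0.15 in ZD, 0.15 ± 0.20 in ZRPF and -0.09 ± 0.13 in ZR. Groups overlapped in both experiments, with PF rat 1 below ZD rats 2 and 3. The members are measured in the same rats and are not independent. Under all 27 alternatives the list median stayed between -0.29 and -0.18. The half-site AGAACA of the glucocorticoid response element, on either strand, was found in 3 of 29 promoters of the members (10.3%) and in 20.7% of all promoters.

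**Figure D3:**
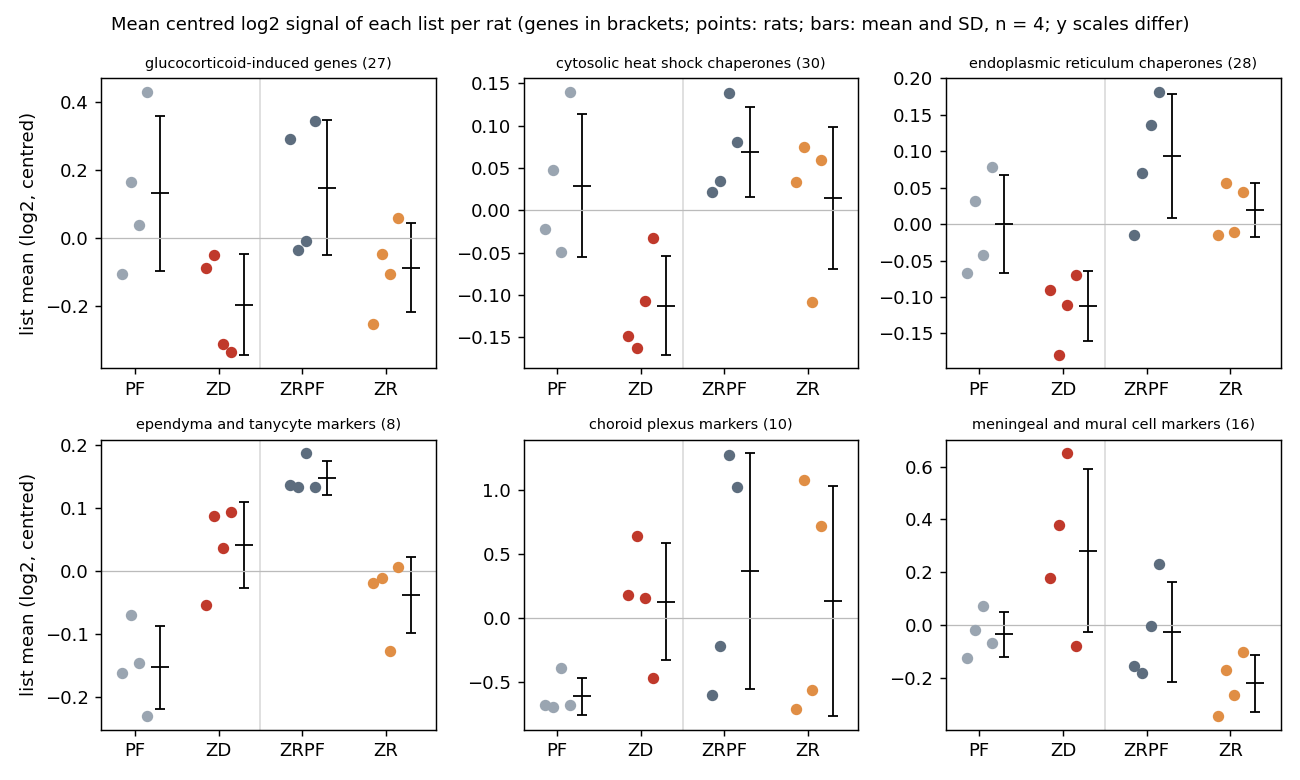
Mean centred log2 signal (vertical axes, scales differ) of 6 lists in each rat by group; points are rats, bars are the mean and SD of 4 rats. The glucocorticoid-induced list has group means of 0.13, -0.20, 0.15 and -0.09 in PF, ZD, ZRPF and ZR with overlap in each experiment, and the ependymal list lies higher in ZD than in PF and lower in ZR than in ZRPF.

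Chaperones of both compartments lay lower on balance. Of 28 tested genes for chaperones and sensors of the endoplasmic reticulum, 22 were lower, 17 were lower in both experiments (60.7%, beside 22.4%) and 9 were lower at an unadjusted p under 0.05 (32.1%, beside 2.91%), while none was higher at that level and none passed. Of 30 tested cytosolic heat shock genes, 23 were lower, 17 in both experiments (56.7%) and 7 at an unadjusted p under 0.05 (23.3%), with none higher and none passed. The effects were small, with medians of -0.06 and -0.07.

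Several of the members of the endoplasmic reticulum list that differed most carry, in the promoter window, the stress element that the unfolded protein response uses, CCAAT and CCACG separated by 9 bases. It was found, on either strand, in 7 of 24 promoters of the list (29.2%) and in 22 of all 33469 promoters (0.0657%). The 7 genes were *Calr*, *Canx*, *Creld2*, *Dnajc3*, *Hsp90b1*, *Hspa5* and *Xbp1*. All 7 were lower, 6 of them in both experiments, with a median of -0.21. The 16 list genes whose promoter window lacked it had a median of -0.03, and 8 of them were lower in both. Among all tested genes, 14 held the element, the 7 list genes included, with a median of -0.04. *Sdf2l1*, whose difference was the largest of the list (-0.35), lacked the whole element in its window. The search planned at the start was for CCACG alone, found in 19 of 24 promoters of the list (79.2%) and in 31.6% of all. The 19 list genes with CCACG had a median of -0.10 and the 4 without 0.02. All 3879 tested genes with CCACG had a median of 0.0013. The search for the whole element was added after the effects were known and its counts are descriptions. The 4 of smallest p are shown with the element in capitals, from RefSeq (GRCr8): *Xbp1* (chr14:84604373-84604672, plus strand), *Dnajc3* (chr15:102432417-102432716, plus), *Creld2* (chr7:121789134-121789433, plus, element on the reverse strand) and *Hspa5* (chr3:38452766-38453065, plus).
Xbp1: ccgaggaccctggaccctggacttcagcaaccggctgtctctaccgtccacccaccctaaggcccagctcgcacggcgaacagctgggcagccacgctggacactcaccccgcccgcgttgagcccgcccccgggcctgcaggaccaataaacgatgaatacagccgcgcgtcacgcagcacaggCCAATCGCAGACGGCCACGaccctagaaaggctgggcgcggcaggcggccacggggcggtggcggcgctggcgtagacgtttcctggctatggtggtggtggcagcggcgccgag
Dnajc3: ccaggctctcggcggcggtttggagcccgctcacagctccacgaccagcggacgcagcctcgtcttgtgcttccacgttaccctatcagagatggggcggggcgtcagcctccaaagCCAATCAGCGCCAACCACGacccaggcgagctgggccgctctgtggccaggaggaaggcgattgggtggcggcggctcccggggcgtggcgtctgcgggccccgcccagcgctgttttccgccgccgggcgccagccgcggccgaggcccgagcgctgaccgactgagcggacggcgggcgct
Creld2: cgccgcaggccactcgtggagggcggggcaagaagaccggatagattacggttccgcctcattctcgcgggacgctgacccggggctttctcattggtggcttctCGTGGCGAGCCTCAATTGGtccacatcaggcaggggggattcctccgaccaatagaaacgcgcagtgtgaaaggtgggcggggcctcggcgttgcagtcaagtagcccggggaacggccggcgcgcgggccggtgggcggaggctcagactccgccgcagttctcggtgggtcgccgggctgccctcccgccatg
Hspa5: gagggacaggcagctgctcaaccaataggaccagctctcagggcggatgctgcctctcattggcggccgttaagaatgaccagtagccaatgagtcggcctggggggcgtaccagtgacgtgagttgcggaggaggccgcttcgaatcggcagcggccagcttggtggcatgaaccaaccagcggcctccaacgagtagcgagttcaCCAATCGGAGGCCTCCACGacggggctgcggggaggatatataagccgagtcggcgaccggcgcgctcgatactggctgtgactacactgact

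*Xbp1*, the transcription factor that the unfolded protein response activates by splicing, had signals of 11.35, 11.53, 11.46 and 11.61 in PF and 11.41, 11.31, 11.12 and 11.38 in ZD, and of 11.77, 11.77, 11.81 and 11.87 in ZRPF and 11.54, 11.70, 11.41 and 11.64 in ZR. The 16-day groups did not overlap and the 10-day groups did. Its effect was -0.21 ± 0.05 (adjusted p = 0.584). *Hspa5*, the main chaperone of the endoplasmic reticulum (BiP), stood at 12.90, 12.89, 12.57 and 13.08 in PF and 12.65, 12.55, 12.5 and 12.21 in ZD, and at 12.67, 13.06, 12.89 and 12.89 in ZRPF and 12.83, 12.91, 12.5 and 12.74 in ZR. Both experiments overlapped for *Hspa5*, with an effect of -0.26 ± 0.08 (adjusted p = 0.584). *Creld2* differed by -0.32 ± 0.10, *Manf*, a secreted stress-response protein, by -0.26 ± 0.08, *Dnajc3*, a co-chaperone, by -0.25 ± 0.07, and *Sdf2l1* by -0.60 in ZD minus PF and -0.09 in ZR minus ZRPF.

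In the cytosolic list the gene of smallest p was *Cryab*, a small heat shock protein abundant in oligodendrocytes and astrocytes. Its signals were 12.04, 11.70, 11.91 and 12.67 in PF and 11.18, 10.96, 11.35 and 11.41 in ZD, and 12.11, 12.00, 12.30 and 12.22 in ZRPF and 11.65, 11.93, 11.47 and 12.28 in ZR. The 10-day groups did not overlap, and 1 ZR rat lay among the ZRPF rats. The effect was -0.59 ± 0.14, a ratio of 0.664 (adjusted p = 0.451), from -0.86 in the 10-day and -0.32 in the 16-day experiment (unadjusted p = 0.047 for the difference between them). *Hspa1a*, the inducible HSP70, differed by -0.35 ± 0.15, the HSP90 co-chaperones *Stip1* by -0.19 ± 0.06 and *Ppid* by -0.14 ± 0.04, and *Hsp90ab1* by -0.11 ± 0.05 (adjusted p from 0.584 to 0.784).

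The heat shock element core GAANNTTC was found in 13 of 25 promoters of this list (52%) and in 8.59% of all promoters. Medians were -0.07 in the 13 members with the core and -0.07 in the 12 without. Lower in both experiments were 9 of the 13 (69.2%) and 5 of the 12 (41.7%). At an unadjusted p under 0.05 the order was the other way, with 2 of the 13 (15.4%) and 3 of the 12 (25%) lower. All 457 tested genes with the core had a median of 0.00095. The 2 members of smallest p that hold the core are shown with it in capitals, *Chordc1* (chr8:23650571-23650870, plus strand), an HSP90-binding protein, and *Dnajb1* (chr19:41431092-41431391, minus strand), the HSP40 partner of HSP70.
Chordc1: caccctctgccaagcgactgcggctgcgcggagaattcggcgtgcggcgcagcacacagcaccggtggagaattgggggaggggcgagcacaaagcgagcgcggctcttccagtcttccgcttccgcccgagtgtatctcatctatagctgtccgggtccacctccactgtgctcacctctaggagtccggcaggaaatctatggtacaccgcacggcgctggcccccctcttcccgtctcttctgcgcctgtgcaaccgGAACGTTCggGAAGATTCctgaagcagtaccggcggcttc
Dnajb1: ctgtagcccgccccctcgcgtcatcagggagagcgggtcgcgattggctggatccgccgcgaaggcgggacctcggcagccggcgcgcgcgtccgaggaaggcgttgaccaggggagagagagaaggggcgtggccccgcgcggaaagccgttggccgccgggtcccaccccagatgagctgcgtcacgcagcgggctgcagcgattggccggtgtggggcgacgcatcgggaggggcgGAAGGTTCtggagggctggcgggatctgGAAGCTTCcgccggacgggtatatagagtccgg

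*Chordc1* differed by -0.41 in ZD minus PF and by -0.01 in ZR minus ZRPF, and *Dnajb1* by -0.23 and -0.09.

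**Figure D4:**
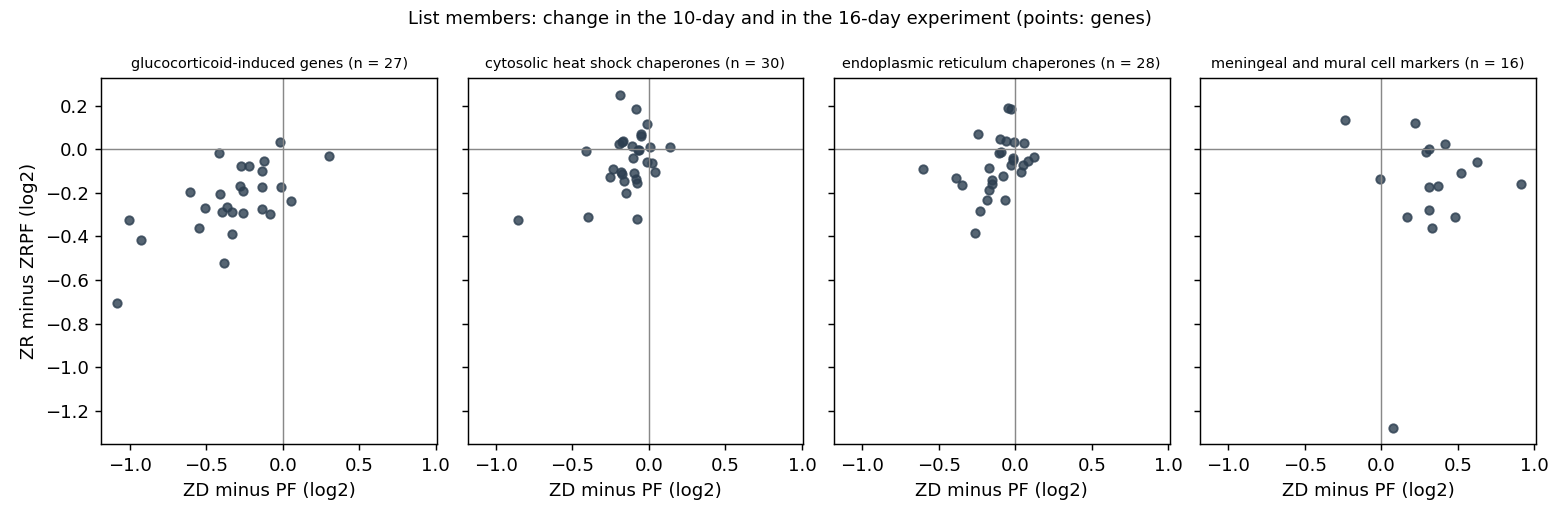
ZD minus PF (horizontal axis) against ZR minus ZRPF (vertical axis), both in log2 signal, for the tested members of 4 lists; each point is a gene. In the glucocorticoid-induced list 24 of 27 points lie below 0 on both axes, as do 17 of 30 cytosolic and 17 of 28 endoplasmic reticulum chaperones, whereas the medians of the meningeal and mural list are 0.31 and -0.15.

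Zinc transporters were measured because the diets differed in zinc. Of 14 tested genes, 7 were higher in both experiments (50%, beside 25%), 1 was lower in both, and 3 were higher at an unadjusted p under 0.05 (21.4%, beside 3.68%). None passed, and the median was 0.04. *Slc39a7* (ZIP7), which releases zinc from the endoplasmic reticulum into the cytosol, stood at 9.84, 9.67, 10.27 and 9.79 in PF and 10.41, 10.37, 10.57 and 9.91 in ZD, and at 9.46, 9.54, 10.20 and 9.74 in ZRPF and 10.08, 10.22, 10.16 and 10.43 in ZR. All 8 deficient rats exceeded their pair-fed mean, though 1 pair-fed rat in each experiment lay within the deficient range. The effect was 0.46 ± 0.11 (adjusted p = 0.584), with 0.43 and 0.49 in the 2 experiments. *Slc39a1* (ZIP1) differed by 0.19 ± 0.06 (adjusted p = 0.593).

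*Slc39a10* (ZIP10), an importer of the plasma membrane, differed between the experiments. Its signals were 11.22, 11.23, 11.25 and 11.06 in PF and 11.39, 11.46, 11.54 and 11.35 in ZD, without overlap, and 11.07, 11.05, 11.18 and 11.02 in ZRPF and 11.07, 10.98, 11.08 and 11.18 in ZR. The differences were 0.25 ± 0.06 and 0.00 ± 0.06 (interaction 0.25 ± 0.09, unadjusted p = 0.015, adjusted p = 0.747), so its shared effect of 0.12 ± 0.05 came from the 10-day experiment.

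Cholesterol synthesis genes were higher more often than lower, 15 of 22, with 10 higher in both experiments (45.5%, beside 25%) and 3 at an unadjusted p under 0.05 (13.6%, beside 3.68%), and none passed. *Dhcr7*, which catalyses a late step of the pathway, was at 9.78, 9.54, 9.71 and 9.42 in PF and 10.04, 9.82, 10.00 and 10.24 in ZD, and at 9.65, 9.46, 9.32 and 9.30 in ZRPF and 9.53, 9.53, 9.58 and 9.82 in ZR. The 10-day groups did not overlap and the 16-day groups did. The effect was 0.30 ± 0.08 (adjusted p = 0.584). *Hsd17b7* differed by 0.21 ± 0.07 with its brightest probe set and by 0.09 ± 0.11 with its other one. TCACNCCAC, a sterol element searched on both strands, was in 0 of 19 promoters of the list and in 1.12% of all promoters.

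Clock genes split. *Per2*, a repressor of the clock, was at 9.51, 9.77, 9.83 and 9.64 in PF and 9.30, 9.32, 9.47 and 9.23 in ZD, and at 9.89, 9.55, 9.92 and 9.71 in ZRPF and 9.53, 9.52, 9.46 and 9.60 in ZR. Every deficient rat lay below its pair-fed mean, and 1 pair of rats crossed in the 16-day experiment. The effect was -0.30 ± 0.07 (adjusted p = 0.451). *Cry2*, its partner, was higher by 0.14 ± 0.05 in the fit (adjusted p = 0.598), while *Nr1d1*, which encodes REV-ERB alpha, differed by 0.71 in ZD minus PF and by -0.08 in ZR minus ZRPF. Of 18 clock genes, 7 were lower and 7 were higher in both experiments (38.9% each, beside 22.4% and 25% of all genes). At an unadjusted p under 0.05, 2 were lower (11.1%, beside 2.91%) and 4 were higher (22.2%, beside 3.68%). None passed, and the median was -0.01.

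The interaction measures how far the 2 changes that the shared effect averages lie apart. None of the 15521 probe sets passed for it with limma, 1025 had an unadjusted p under 0.05, and 600 genes (6.47%) did. *Vim*, the intermediate filament of astrocytes, ependyma and vessels, had the smallest p: 0.40 ± 0.10 in ZD minus PF and -0.34 ± 0.10 in ZR minus ZRPF (adjusted p = 0.375), which left a shared effect of 0.03 ± 0.11. *Clstn3*, a synaptic adhesion protein, was the single probe set that passed in ZR minus ZRPF (-1.71 ± 0.26, adjusted p = 0.0460), and it differed by 0.17 ± 0.26 in ZD minus PF. *Npy1r*, a neuropeptide Y receptor, differed by -0.59 ± 0.12 in the 10-day and -0.02 ± 0.12 in the 16-day experiment. *Armcx6* and *Hyal2* were higher in every ZD rat than in any PF rat and lower in every ZR rat than in any ZRPF rat. These are 2 of 9278 genes, and no gene did the reverse. Groups did not overlap for 404 genes (4.35%) in the 10-day and for 262 (2.82%) in the 16-day experiment, in either direction.

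The medians of the choroid plexus list and of the meningeal and mural list went opposite ways in the 2 experiments. The list means of single rats overlapped in both experiments. The median of 10 tested choroid plexus markers was 0.49 in ZD minus PF and -0.27 in ZR minus ZRPF, and that of 16 meningeal and mural markers was 0.31 and -0.15, which left shared medians of 0.14 and 0.09. *Ttr*, transthyretin, the most abundant transcript of the choroid plexus, had group means of 8.62 ± 1.19 (SD, n = 4) in PF, 11.78 ± 1.56 in ZD, 12.12 ± 2.54 in ZRPF and 11.32 ± 3.08 in ZR. The summed signal of 17 choroid markers ranged from 10293 to 12104 in PF, 10956 to 25048 in ZD, 10088 to 40497 in ZRPF and 9228 to 37792 in ZR. With the choroid plexus and thalamus marker means of each rat as covariates, *RT1-S3* differed by 0.79 ± 0.13 (adjusted p = 0.0881) and no probe set passed for the shared effect. Of 17 astrocyte markers, 15 were lower, 8 in both experiments (47.1%, beside 22.4% of all genes). Their median was -0.06, and their sums overlapped in both experiments.

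Markers of hypothalamus were measured as summed signals, and whether each marker was detected in a rat was not tested. Summed hypothalamic markers were 29592 to 34690 in PF and 26078 to 35781 in ZD, and 41983 to 46341 in ZRPF and 38732 to 44715 in ZR, so they differed between the experiments and overlapped within each. The hypothalamic hormones *Avp* and *Oxt* had shared effects of -0.29 ± 0.20 (adjusted p = 0.881) and -0.41 ± 0.16 (adjusted p = 0.676). For both, ZD rat 8 was the lowest ZD rat. It stood at 9.93 for *Avp*, with the other ZD rats at 11.36 to 12.20, and at 10.91 for *Oxt*, with the others at 11.49 to 12.60. *Npy*, the feeding peptide, had a shared effect of -0.06 ± 0.08 (adjusted p = 0.951). The median signal per array ran from 156 to 172.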

How the data were processed

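The deposited table gave a signal intensity on a linear scale for each probe set of each array, computed by the authors with MAS5 per the submitters' processing notes (version not given in the sources used here). Trimmed by 2% at either end, the mean signal was 500.1 on every array. RNA had been amplified and labelled with a kit primed at the 3 prime end, per the labels' protocols, which reads mostly transcript ends. Signals were taken as log2, with no further normalization. Of 31099 probe sets, 57 controls were left out, and 15521 with a mean log2 signal at or above the median (7.35) were tested. Genes are named from the platform annotation only where it gave a single gene (20826 probe sets), not where it gave several (436) or none (9780).

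limma 3.58.1 (R 4.3.3) was fitted with diet and experiment as terms and an intensity trend. A 4-group fit gave the change in each experiment and the interaction. The pipeline was tested on simulated arrays. Precision is limited by the number of arrays.

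The comparison, the named genes and the 36 lists (13 of them described) were chosen with earlier results of these data known, and no list was tested. Named genes were up to 15 per direction by smallest p, up to 4 per list by size of statistic, genes without overlap in both experiments, 6 of the interaction and a fixed set. Other genes were named from the lists after their values were seen. Alternatives covered scaling, filter, offset, trend, array weights, model, covariates and each rat left out. Sample numbers pair no animals.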

Additional observations from a re-analysis of the deposited data

Results flagged for a closer look

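Values of single rats set apart from the other 3 of their group were looked for in 420 groups of 4 by Dixon's ratio above its critical value, where chance gives about 1 in 20, and 22 were found. On the log2 scale, ZR rat 15 was low for *Wbp11* (9.96) and high for *Dhcr7* (9.82), and ZR rat 7 was low for *Nr1d1* (7.92). Among ZRPF rats, rat 5 was low for *Aph1a* (9.27), and rat 4 was high for *Tpm1* (9.99) and low for *Tyrobp* (7.35). PF rat 2 was high for *Tpm1* (9.62), *Foxj1* (8.62) and *Drc12* (8.38). PF rat 6 was low for *Jund* (11.83), *C4h2orf42* (8.98) and *Slc39a10* (11.06), and PF rat 4 was high for *Slc39a11* (8.90). Among ZD rats, rat 2 was high for *Irf7* (8.69), rat 3 was low for *Drc12* (7.73) and *Glul* (13.03), rat 8 was low for *Npy* (10.00), and rat 9 was low for *Cldn5* (11.01) and *Lyz2* (10.40). Among list means, ZD rat 8 was high for zinc transporters (0.10), PF rat 4 for choroid plexus markers (-0.39) and ZRPF rat 5 for ependymal and tanycyte markers (0.19).

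The mean of 8 ependymal and tanycyte markers was higher in every ZD rat than in any PF rat and lower in every ZR rat than in any ZRPF rat. The difference was 0.19 in the 10-day and -0.18 in the 16-day experiment, which are 0.38 apart. That difference was not tested.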

How the results depend on the processing

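No paired analysis was possible because ZD and PF share 1 rat number and ZR and ZRPF share none. The number of probe sets past the threshold for the shared effect, 2 in the main analysis, was 0 with quantile normalization, no filter, a stricter filter on dim probe sets, no experiment block, choroid plexus and thalamus covariates, or without ZD rats 8 and 9, and 0 to 4 when each rat was left out. For the interaction (0) it was 0 to 1 when each rat was left out. For ZD minus PF (0) it was 1 without ZD rats 8 and 9, and 0 to 3 over rats left out. For ZR minus ZRPF (1) it was 0 with quantile normalization, no filter, a stricter filter on dim probe sets or no intensity trend, and 0 to 9 over rats left out, 9 without ZRPF rat 6. The cause was not tested. Genes without overlap in both experiments, 8 in the main analysis, were 13 with quantile normalization, 21 without ZD rats 8 and 9, and 11 to 23 over rats left out, where fewer samples make separation easier by construction. Of the named genes, the shared effect changed sign for *Vim* (0.032), to -0.021 with the covariates and -0.020 without ZD rats 8 and 9, and ran from -0.031 to 0.080 over rats left out, below 0 without PF rat 1 or ZD rat 3 or 8. For *Tax1bp3* (-0.018) it ran from -0.083 to 0.056 over rats left out, above 0 without ZRPF rat 4, 5 or 6 or ZR rat 7 or 13. Of the 92 genes recomputed under the alternatives, these were the only 2 that changed sign. Adjusted p-values over these alternatives were 0.0474 to 0.802 for *Lrrn3* and 0.0926 to 0.802 for *C1qtnf12*.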

Other observations

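Genes of chromosome 20 (GRCr8), which holds the rat MHC, had a shared effect with an unadjusted p under 0.05 more often than those of any other chromosome with at least 20 tested genes. They were 30 of 244 (12.3%), 18 higher and 12 lower, and on the other 20 chromosomes the share ran from 3.43% to 7.97%. The pattern was noticed in the data and was not tested. The genes were spread along the chromosome: 9 of 107 genes that start in the first 10 Mb, where the MHC lies, were among them (8.41%), and 21 of 137 in the rest (15.3%). In the first 10 Mb, beside *RT1-S3*, the zinc transporter *Slc39a7* (0.46 ± 0.11), *Prrc2a* (0.35 ± 0.13) and *Zbtb22* (0.25 ± 0.08) were higher in the fit, and *Hspa1a* (-0.35 ± 0.15), *Trim26* (-0.24 ± 0.09) and *Pfdn6* (-0.23 ± 0.08) were lower, with adjusted p from 0.584 to 0.707.

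Of 67 genes of the respiratory chain and ATP synthase, 54 were lower in the shared effect, with a median of -0.02. Of all genes, 48.7% were lower. Only 13 of the 67 were lower in both experiments (19.4%, beside 22.4% of all genes). The medians were 0.02 in ZD minus PF and -0.06 in ZR minus ZRPF. The 40 cytosolic ribosomal protein genes were alike, with 30 lower and 9 lower in both (22.5%).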
